A study of Mus musculus with 32 samples.

Results

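The TNFR2 agonist time course consisted of 6 of the 32 libraries of the series, 3 collected at 18 h and 3 at 36 h, and was read as the difference between those times in every gene that could be tested. The members were chosen by title alone, and 14313 of 54087 listed genes had enough reads to be tested. All 6 libraries came from regulatory T cells (Tregs) purified by their Foxp3/GFP signal from Foxp3-IRES-GFP knock-in mice on the C57BL/6 background aged 2.5 months, in which the reporter is transcribed with Foxp3, the lineage-defining factor of Tregs. The cells were cultured in RPMI with serum on coated anti-CD3 together with anti-CD28 and mouse IL-2 at 10 ng/ml, and the agonist, TNC-sc(mu)TNF80 (STAR2), was present at 12 ng/ml. Control cultures (3 libraries at each time) had the same coated antibodies and IL-2 without an agonist, so stimulation and IL-2 were shared by every culture compared here. Cultures with the 4-1BB antibody 3H3 at 10 µg/ml or with TL1A, the ligand of DR3, at 12 ng/ml (3 libraries each at each time) were used for comparison. The labels do not say whether replicates came from separate animals, pools or wells, so the p-values measure only the spread between these libraries, which may be technical.

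TNFR2, encoded by Tnfrsf1b, is a TNF receptor without a death domain that recruits TRAF adaptors and cIAP ubiquitin ligases and activates NF-kB. Tregs carry more of it than most other T cells, and its engagement costimulates Tregs that also receive a T cell receptor signal. A stimulated T cell first makes ribosomes and biosynthetic enzymes, then replicates its DNA and divides, while the early target genes of the receptor signal are usually transient.

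The 2 times differed widely. Expected read counts totalled 15851153 to 21520225 per library, and values below are CPM, the count scaled to TMM-adjusted library totals, with log2 fold changes from an edgeR quasi-likelihood test and Benjamini-Hochberg adjusted p-values over all 14313 genes (called below 0.05). With the agonist 7225 genes (50.5%) were called between 18 h and 36 h, 3720 higher at 36 h (26%) and 3505 lower (24.5%). Most changes were small, the median size of the log2 fold change being 0.36 among called genes, while 732 genes (5.11%) were called and at least 2-fold higher and 318 (2.22%) at least 2-fold lower. The 3 libraries of one time did not overlap the 3 of the other in 6795 of the called genes, beside 7928 of all genes tested (55.4%). In a principal component analysis of the agonist and control libraries the first component (44.2% of the variance) parted 18 h from 36 h and the second (18.2%) parted agonist from control.

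The transcript of 1 ribosomal RNA locus, RP23-81C12.3 (Gm42418, chr17:39846958-39848788, mm10), differed widely between libraries of a single group. It reached 12030, 1409 and 1494 CPM in the 3 agonist libraries at 18 h and 15380, 2760 and 4022 CPM in those at 36 h, so replicate 1 was high at both times. In control it took 10090, 26290 and 8029 CPM at 18 h and 3286, 747 and 848 CPM at 36 h, where the groups did not overlap. Without the 6 libraries of the series above 10000 CPM, which left 2 agonist libraries at each time and 1 control library at 18 h, 5983 genes were called between the times and 242 differed from control in their change, against 958 with all libraries. With this transcript as a covariate the counts were 7093 and 512.

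The 12 markers of T cell and Treg identity summed to 6416 to 6740 CPM at 18 h and 5670 to 5860 CPM at 36 h. Cd3g, a subunit of the T cell receptor complex, fell from 138 ± 3.44 to 100.2 ± 6.74 CPM (SD, n = 3 at each time), while 4 of the 12 rose and 4 fell. Of 16 myeloid and dendritic cell markers 7 were tested, and the summed level of the markers went from 4.87 to 5.33 CPM at 18 h to 9.34 to 10.6 CPM at 36 h, most of it from Mpeg1 (perforin-2) and Cd68 (a lysosomal protein). Of the 7, 2 were called higher and 1 lower, with a median log2 fold change of -0.16. The lower one was Lyz2 (log2 -4.39), near 1 CPM, whose call was lost under several alternatives. Lyz1, Siglech, Clec9a, S100a8 and S100a9 were listed at 0 in all 6 libraries. The summed level of 14 B cell markers was 381.2 to 409.6 CPM at 18 h and 291.7 to 312.7 CPM at 36 h and lay almost wholly in Ighm, the immunoglobulin heavy chain gene, with 377.1 ± 14.6 and 285.2 ± 10.0 CPM, while 9 of the 14 stayed under 1 CPM in every agonist library. CD8, NK and gamma-delta T cell markers summed to 8.47 to 10.2 CPM at 18 h and 8.31 to 9.24 CPM at 36 h, with Klrb1c, Klrk1, Ncr1, Klra1 and Klra3 at 0 in all 6, and erythroid and platelet markers stayed under 1.43 CPM. Markers of conventional helper T cells rose in sum from 149.5 to 159 CPM to 238.7 to 243.8 CPM, with 6 of 9 higher and 1 lower, the main part being Tbx21. The part that a shift in cell composition had in the changes below was not tested, and in bulk RNA fewer cells of a type and less RNA per cell cannot be told apart.

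The 12 largest rises and 12 largest falls among genes of at least 5 CPM were genes of many kinds. Slc4a11, a membrane transporter (chr2:130684113-130697519), was at 1.08, 1.52 and 1.72 CPM at 18 h and at 38.5, 36.9 and 39.7 CPM at 36 h. The change was 4.76 ± 0.11 on the log2 scale (SE; adjusted p = 1.48e-34), or 27.0-fold, the highest of the 12 largest rises. Dclk1 (a microtubule-associated kinase, 13-fold), Sulf2 (an extracellular sulfatase, 13.8-fold), Scd1 (a stearoyl-CoA desaturase, 11-fold) and Cdkn3 (a cell cycle phosphatase, 8.37-fold) came next. The remaining 7 of the 12 were Ccnb2, Cttnbp2nl, Cyp11a1, Tgm2, Depdc1a, Ccl3 and Galnt3, between 5.88-fold and 7.41-fold higher.

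Klf2, a transcription factor of quiescent and recirculating T cells (chr8:72319033-72321656), was at 20.4, 21.7 and 22.3 CPM at 18 h and at 5.69, 6.86 and 4.93 CPM at 36 h, a fall of 3.67-fold. Fam160a1 (chr3:85660061-85817291) fell from 31.49 ± 0.327 to 8.43 ± 0.812 CPM, with a log2 fold change of -1.90 ± 0.08 and an adjusted p of 9.06e-25. Klf3, another Krüppel-like factor of resting lymphocytes, fell 3.08-fold, and Trib2, a pseudokinase, fell 3.33-fold. The other 8 of the 12 largest falls, Wfikkn2, Tnnt2, Ryr2, Ddx60, Txnrd3, Tcp11l2, Slc7a10 and Cybrd1, lay between 2.78-fold and 3.69-fold lower. Libraries of the 2 times overlap in none of these genes by the rule that chose them.

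**Figure D1:**
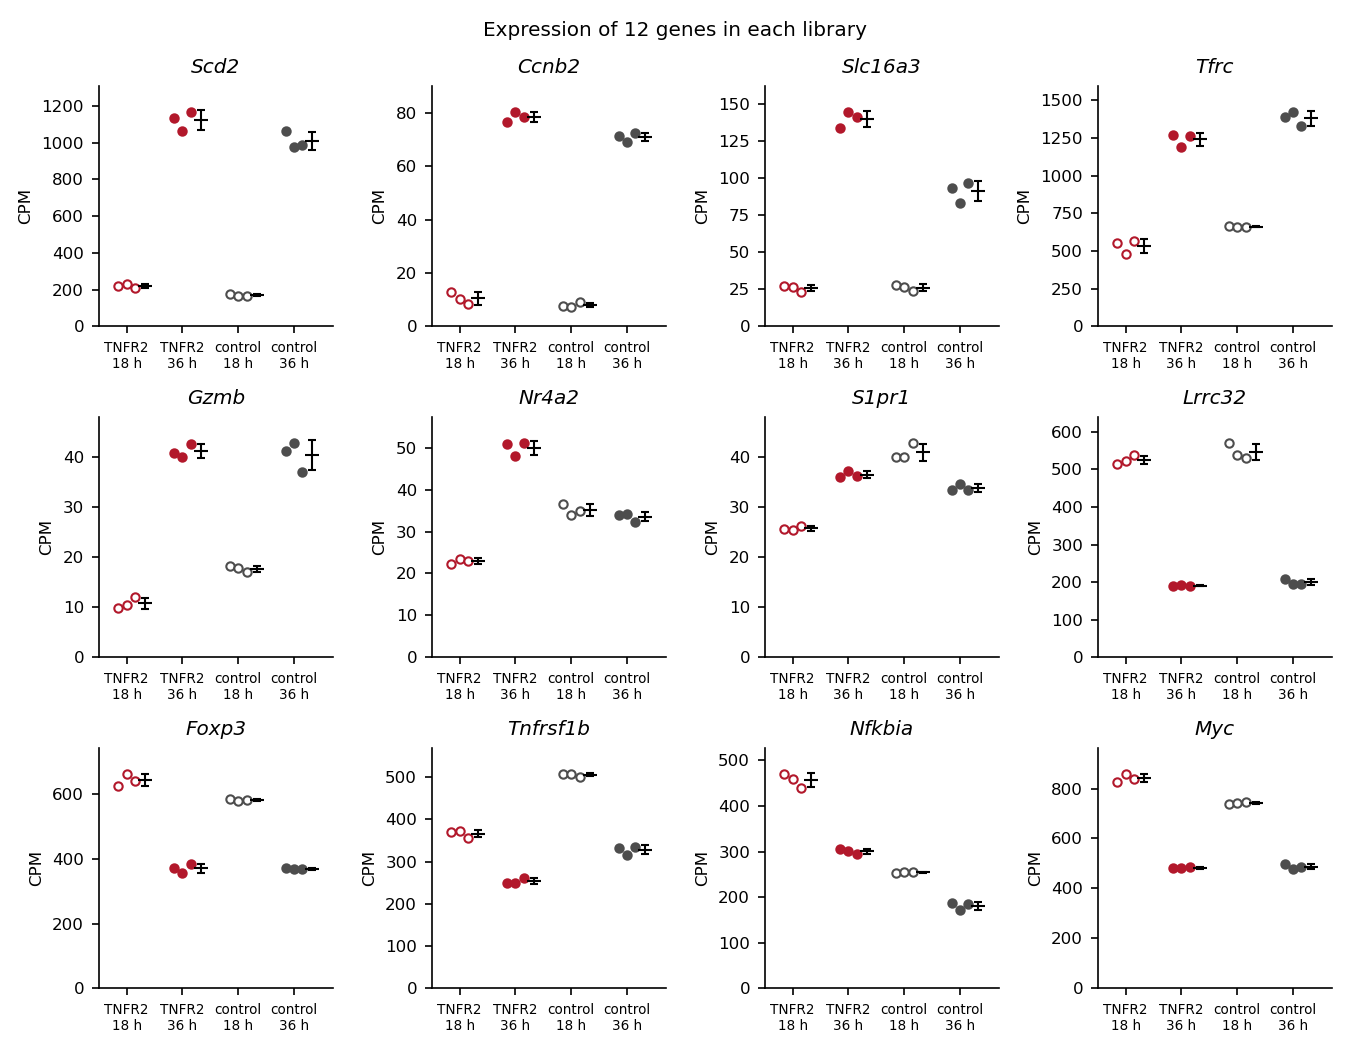
CPM of 12 genes in each library (y axis) for the TNFR2 agonist and control cultures at 18 h (open points) and 36 h (filled points), with bars for the mean and SD of 3 libraries. Scd2, Ccnb2, Slc16a3, Tfrc and Gzmb were higher and Lrrc32, Foxp3, Tnfrsf1b, Nfkbia and Myc lower at 36 h in both cultures, whereas S1pr1 rose with the agonist and fell in control.

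Cell division genes rose together. Of 40 genes of G2 and mitosis, 39 were higher at 36 h and none lower, with a median log2 fold change of 1.70, beside -0.01 over all genes tested. Ccnb2, the mitotic cyclin B2 (chr9:70407692-70421547), was at 12.9, 10.1 and 8.29 CPM at 18 h and at 76.6, 80.4 and 78.3 CPM at 36 h, a 7.41-fold rise (log2 2.89 ± 0.07, adjusted p = 3.53e-34). Nusap1 and Tpx2, which organise the mitotic spindle, and the mitotic kinesin gene Kif20a rose 4.02-fold, 3.56-fold and 3.45-fold. The lowest of the libraries at 36 h lay well above the highest at 18 h in each of these 4 genes.

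DNA replication genes moved less. Among 40 members 32 were higher and 4 lower, with a median of 0.37. Rrm1, the large subunit of ribonucleotide reductase, went from 346.9, 359 and 309.6 CPM to 670.1, 639.3 and 680.4 CPM, and Rrm2, its small subunit, rose from 145.3 ± 14.2 to 418 ± 0.566 CPM. Tyms and Dut, which supply and purify thymidine nucleotides, rose 1.86-fold and 1.66-fold. Of 22 G1 cyclins, kinases and inhibitors 14 rose and 2 fell: Cdkn2d, an inhibitor of CDK4 and CDK6, rose 4.19-fold, Ccne1 (cyclin E1) 2.54-fold and E2f2 2.18-fold. Ccnd2, the growth-factor-responsive cyclin D2, fell from 2573 ± 87.9 to 1626 ± 41.5 CPM, so the D-type and E-type cyclins named moved in opposite directions.

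The promoter windows of cell cycle genes hold known elements of periodic transcription, shown here because these genes moved together. Windows run from 250 bases before to 50 after each start in RefSeq (GRCm38.p6). Only the 250 bases before the start were searched, on both strands, and 33 of the 40 G2 and mitosis genes matched with 35 windows. CCAAT was found in 80% of these windows and in 33.8% of all 32851, and TTTGAA, the core of the cell cycle homology region (CHR), in 34.3% and 16%. The E2F motif, TTCCCGC or TTGGCGC, was found in 32.4% of 37 windows from 32 replication genes and in 5.62% of all. A match is a description of letters and not a measured site. For Ccnb2, which held 3 CCAAT matches and 1 TTTGAA match (capitals), the bases before the start are chr9:70421555-70421804 on the minus strand, and for Rrm1, with 1 E2F match (capitals), chr7:102441445-102441694 on the plus strand.
Ccnb2: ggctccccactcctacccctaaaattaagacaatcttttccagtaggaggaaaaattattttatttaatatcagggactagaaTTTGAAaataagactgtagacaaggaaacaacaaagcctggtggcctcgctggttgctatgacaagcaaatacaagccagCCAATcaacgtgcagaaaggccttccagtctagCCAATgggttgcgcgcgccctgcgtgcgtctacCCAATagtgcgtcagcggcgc
Rrm1: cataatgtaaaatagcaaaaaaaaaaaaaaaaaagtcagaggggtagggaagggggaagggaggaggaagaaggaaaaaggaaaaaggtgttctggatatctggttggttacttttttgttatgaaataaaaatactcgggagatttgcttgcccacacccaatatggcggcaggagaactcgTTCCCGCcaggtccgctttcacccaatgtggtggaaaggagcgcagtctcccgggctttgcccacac

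Cell cycle genes rose in control cultures too. There 39 of 40 G2 and mitosis genes were higher at 36 h, with a median of 2.01, and 35 of 40 replication genes, with a median of 0.45. A smaller change here means a smaller rise or a larger fall with the agonist. It was found in 20 of the 40 G2 and mitosis genes and in 10 of the 40 replication genes. Of all genes 3.01% differed in this direction, and no gene of either list differed in the other. Ccnb2 averaged 7.95 CPM at 18 h and 70.9 CPM at 36 h in control. The counts of smaller changes moved with the ribosomal locus transcript: they were 16 and 7 with it as a covariate, and 2 and 0 without the libraries above 10000 CPM.

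Glycolysis and hypoxia response genes rose, as did fatty acid desaturation, while ribosome biogenesis fell. Of 23 glycolysis genes 19 were higher and 1 lower, with a median of 0.49. Slc16a3, the lactate exporter MCT4, was at 27.3, 26.2 and 23.4 CPM at 18 h and at 133.8, 144.6 and 141.3 CPM at 36 h, a 5.44-fold rise (log2 2.44 ± 0.06, adjusted p = 5.69e-30). The glycolytic enzyme genes Tpi1, Pgk1 and Eno1 rose 2.22-fold, 1.99-fold and 1.84-fold. All 3 are transcribed from HIF-responsive promoters in hypoxia, but the part of HIF in these rises was not tested. The genes shared by the glycolysis and hypoxia lists are Slc2a1 and Pdk1.

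Of 23 hypoxia response genes tested 21 rose and none fell, with a median of 0.62. Ddit4, an inhibitor of mTORC1 that is also an ATF4 target, was at 33.8, 31.97 and 33.6 CPM at 18 h and at 113.2, 115.6 and 112.4 CPM at 36 h, a log2 fold change of 1.78 ± 0.05 with an adjusted p of 2.43e-31. Bnip3, which marks mitochondria for removal, rose 5.74-fold, Ak4, a mitochondrial adenylate kinase, 2.88-fold, and Slc2a1, the glucose transporter GLUT1, 1.98-fold. ACGTG, the core of the hypoxia response element, was found on either strand in 58.6% of 29 windows from 19 of the 24 listed genes and in 16.6% of all windows. For Ddit4, whose window held 1 match (capitals), the bases before the annotated gene are chr10:59951835-59952020 on the minus strand.
Ddit4: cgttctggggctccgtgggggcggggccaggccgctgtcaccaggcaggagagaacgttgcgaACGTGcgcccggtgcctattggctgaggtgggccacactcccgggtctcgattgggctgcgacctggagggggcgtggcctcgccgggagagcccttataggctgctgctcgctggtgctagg

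Against control, Slc16a3 and Ddit4 rose more with the agonist. Slc16a3 averaged 26.1 and 91.1 CPM in control, a change smaller by 0.64 ± 0.09 on the log2 scale (adjusted p = 4.44e-06), and Ddit4 37.5 and 80.1 CPM, a change smaller by 0.68 ± 0.08 (adjusted p = 3.95e-09). At 18 h the cultures overlapped in Slc16a3 and the agonist lay just below control in Ddit4, and at 36 h the agonist libraries lay above control in both genes. Over the lists, 5 of 23 glycolysis genes and 9 of 23 hypoxia genes changed more in the upward direction with the agonist, and 0 and 1 less. Of all genes 3.68% changed more in the upward direction and 3.01% less. Without the libraries above 10000 CPM of the ribosomal locus transcript 2 and 4 were called larger.

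The stearoyl-CoA desaturase genes Scd1 and Scd2 rose. Scd2 (chr19:44293674-44306864), had the smallest p of the whole comparison among the named genes: it was at 221.7, 229.1 and 207.3 CPM at 18 h and at 1134, 1065 and 1168 CPM at 36 h (log2 2.36 ± 0.04, adjusted p = 3.88e-42). Its close paralog Scd1 went from 3.42 ± 0.635 to 38.2 ± 2.74 CPM, and reads shared by such paralogs are divided by the quantifier. Of 18 genes of fatty acid synthesis and desaturation 11 rose and 1 fell, including Fads2 (2.74-fold) and Acsl5 (1.38-fold). Of 27 cholesterol genes 9 were higher and 8 lower, near the 26% and 24.5% of all genes: Cyp51, a synthesis enzyme, rose 1.29-fold and Stard4, a carrier of sterols, 1.27-fold. The count of falls was 5 without the libraries above 10000 CPM of the ribosomal locus transcript.

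Ribosome biogenesis and MYC targets fell in 30 of 34 members, with a median of -0.32, and rose in 1. Myc itself, the transcription factor that drives ribosome production in activated T cells, was at 825, 859.1 and 839.5 CPM at 18 h and at 479.8, 480.7 and 486.4 CPM at 36 h (log2 -0.80 ± 0.03, adjusted p = 2.07e-25). Polr1b, a subunit of RNA polymerase I, and Rrp12, a pre-ribosome export factor, fell 1.54-fold and 1.52-fold. The member that rose was Odc1, a MYC target whose product makes putrescine, the first polyamine, from 958.4 ± 35.2 to 1558 ± 19.7 CPM. Of 43 cytosolic ribosomal protein genes 19 fell and 3 rose, with small changes such as Rpl37 (1.27-fold lower) and Rpl10a (1.2-fold lower). Without the libraries above 10000 CPM of the ribosomal locus transcript 10 of the 43 fell, and none rose without TNFR2 replicate 3 at 18 h or TNFR2 replicate 2 at 36 h.

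Biosynthetic and stress genes gave mixed counts. Of 24 genes of purine, pyrimidine and one-carbon synthesis 12 fell and 4 rose: Impdh1 (guanine nucleotide synthesis), Cad (pyrimidine synthesis) and Shmt2 (serine to glycine) fell 1.40-fold, 1.21-fold and 1.18-fold, and Mthfd2 rose 1.21-fold. Among 14 amino acid and iron transporters 3 rose and 5 fell, beside 26% and 24.5% of all genes. Tfrc, the transferrin receptor, was at 550.3, 479.8 and 568.7 CPM at 18 h and at 1267, 1191 and 1261 CPM at 36 h, while Slc1a5, a glutamine transporter, fell from 414.5 ± 5.26 to 315.9 ± 5.74 CPM. Chaperones fell in 10 of 18 and rose in 3, with Hsph1, Hspa8, Cct5 and Hsp90ab1 between 1.21-fold and 1.26-fold lower. Of 27 genes of ER stress and the ATF4 response 15 rose and 5 fell, among them Sesn2 (2.43-fold higher), a stress sensor that restrains mTORC1, and the ER chaperones Manf and Hsp90b1 (1.31-fold and 1.29-fold higher). The counts of falls were 2 for the transporters, 5 for the chaperones and 3 for the ER stress genes without the libraries above 10000 CPM of the ribosomal locus transcript, and 3 for the transporters without TNFR2 replicate 3 at 18 h or TNFR2 replicate 2 at 36 h. Of the 3 chaperones that rose, 1 was called without TNFR2 replicate 3 at 18 h, or without TNFR2 replicate 1 or 3 at 36 h.

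Respiratory chain genes shifted little: 17 of 38 nuclear genes rose and 4 fell, with a median of 0.08. Cycs (cytochrome c) rose 1.26-fold and Sdhd (complex II) 1.19-fold. Of 11 mitochondrially encoded genes mt-Nd6 (2.09-fold) and mt-Co3, at about 1 CPM or less, were called, both higher. The call of mt-Co3 was lost without TNFR2 replicate 1 or 2 at 18 h (adjusted p = 0.0602 and 0.144), without TNFR2 replicate 1 at 36 h (0.0951) and without the libraries above 10000 CPM of the ribosomal locus transcript (0.175). The most abundant named mitochondrial transcript, mt-Co1, had 4771, 5106 and 5560 CPM at 18 h and 6409, 6476 and 5844 CPM at 36 h and was not called (adjusted p = 0.071). A fit of the agonist libraries alone tested 12431 genes. In it mt-Co1 had an adjusted p of 0.000303 and 6 mitochondrially encoded genes were called higher. Without the libraries above 10000 CPM of the ribosomal locus transcript 1 of the 38 nuclear genes fell.

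**Figure D2:**
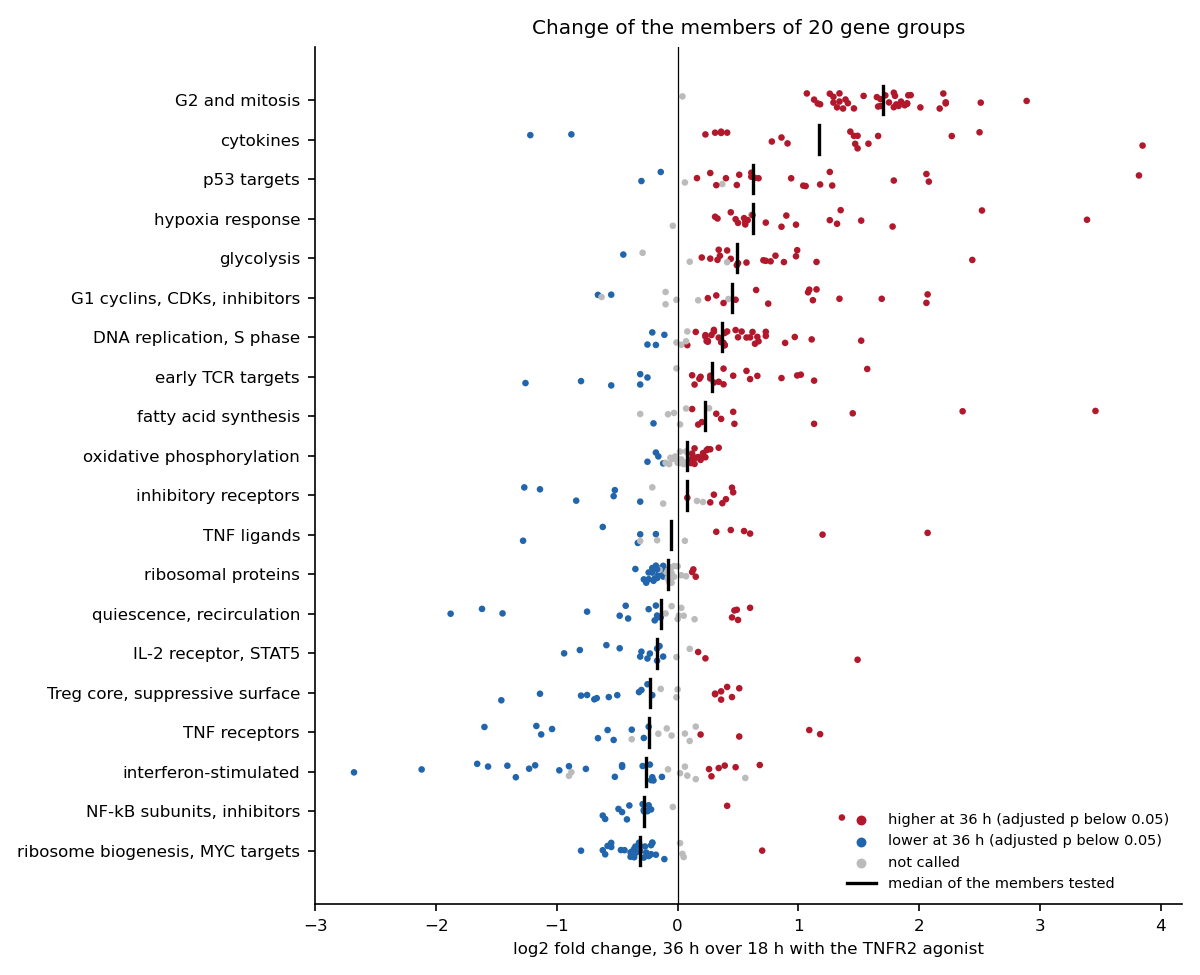
Log2 fold change from 18 h to 36 h with the TNFR2 agonist (x axis) for the members of 20 gene groups (rows), with red points called higher, blue called lower, grey not called and a black bar at the median. G2 and mitosis genes lie farthest to the right, with a median of 1.70, and ribosome biogenesis genes lie mostly to the left, with a median of -0.32.

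Treg core and suppressive surface genes fell more often than they rose. Among 22 Treg core factors and suppressive surface molecules 12 were lower and 7 higher, with a median of -0.23. Foxp3 (chrX:7573644-7595245) was at 625.6, 662.5 and 640.4 CPM at 18 h and at 372, 355.4 and 382.5 CPM at 36 h (log2 -0.80 ± 0.04, adjusted p = 3.27e-24). Its level fell 1.74-fold in libraries that did not overlap. Lrrc32, which encodes GARP, the surface anchor of latent TGF-beta (chr7:98489283-98502181), fell further, from 514.3, 522.4 and 537.4 CPM to 189.6, 192.1 and 189.8 CPM, or 2.75-fold. Gpr83, a receptor enriched in Tregs, and Nrp1, the semaphorin receptor of thymic Tregs, fell 1.69-fold and 1.62-fold.

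Foxp3 and Lrrc32 took a like course in control, with means of 581.6 and 368.7 CPM for Foxp3 and of 546.6 and 200.2 CPM for Lrrc32 at 18 h and 36 h. In control 15 of the 22 fell and 4 rose. Il2ra (CD25), which gives the IL-2 receptor its high affinity, fell 1.19-fold with the agonist, from 3203 ± 76.9 to 2687 ± 83.5 CPM. Ctla4, the inhibitory receptor that removes CD80 and CD86 from antigen-presenting cells, rose from 330.4, 322.2 and 365.2 CPM to 468.6, 465.4 and 454.3 CPM with the agonist, while its mean in control was 513.2 CPM at 18 h and 526.6 CPM at 36 h. The change in Ctla4 was larger with the agonist by 0.41 ± 0.06 on the log2 scale (adjusted p = 2.11e-06).

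NF-kB genes, known targets of the signal from this receptor, were mostly lower at 36 h. Of 16 subunits and feedback inhibitors 13 fell and 2 rose, with a median of -0.28. Nfkbia, the inhibitor IkB-alpha that NF-kB itself induces, was at 470.9, 458.8 and 439.9 CPM at 18 h and at 306, 300.8 and 294 CPM at 36 h (log2 -0.60 ± 0.04, adjusted p = 7.59e-20). Nfkbib (IkB-beta) and Relb, the transcriptional partner in the alternative pathway, fell 1.40-fold and 1.38-fold. Tnip3, an A20-binding inhibitor, rose 2.57-fold, from 4.40 ± 0.558 to 11.2 ± 0.597 CPM.

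At 36 h Nfkbia was still above its control level: control averaged 254.8 CPM at 18 h and 180.6 CPM at 36 h. In control 10 of the 16 fell and 2 rose, with a median of -0.19. The NF-kB motif was found on either strand in 61.1% of 18 windows from 13 of the 16 genes and in 3.9% of all windows. For Nfkbia, shown for its 1 match (capitals, read on the opposite strand), the bases before the start are chr12:55492648-55492897 on the minus strand.
Nfkbia: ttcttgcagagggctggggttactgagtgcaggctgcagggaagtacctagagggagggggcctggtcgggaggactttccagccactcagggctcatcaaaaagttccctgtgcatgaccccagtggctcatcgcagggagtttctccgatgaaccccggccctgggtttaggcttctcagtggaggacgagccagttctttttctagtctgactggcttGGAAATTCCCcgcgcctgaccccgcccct

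The targeted receptor also fell, as did part of its adaptors. Tnfrsf1b (chr4:145213463-145246870, minus strand) was at 369.1, 371.7 and 355.9 CPM at 18 h and at 248.7, 250.1 and 261 CPM at 36 h, a fall of 1.44-fold (log2 -0.53 ± 0.04, adjusted p = 7.05e-18). Control averaged 505 CPM at 18 h and 328.1 CPM at 36 h. Of 15 TRAF and cIAP adaptors 9 fell and 1 rose, with a median of -0.16. Birc3 (cIAP2), Traf3 and Traf6 fell 1.25-fold, 1.22-fold and 1.18-fold, and the kinase gene Chuk (IKK-alpha) rose 1.24-fold.

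Other TNF receptors moved both ways. In the list of 21, which includes Tnfrsf1b, 4 were higher and 10 lower, beside 26% and 24.5% of all genes. Cd27, a costimulatory receptor of resting T cells, fell 2.25-fold, Tnfrsf25 (DR3) 2.06-fold, Tnfrsf8 (CD30) 1.58-fold and Tnfrsf4 (OX40) 1.18-fold. Tnfrsf13b (TACI) rose from 51.2 ± 0.403 to 115.9 ± 3.23 CPM. Tnfrsf9, which encodes 4-1BB, was at 522.3, 463.2 and 517.9 CPM at 18 h and at 562.4, 588.7 and 562.8 CPM at 36 h (log2 0.19 ± 0.04, adjusted p = 1.71e-05). In control Tnfrsf9 averaged 565 and 433.7 CPM, a difference between the changes of 0.57 ± 0.05 on the log2 scale (adjusted p = 1.34e-11), while Tnfrsf8 fell more with the agonist than in control (difference -0.40 ± 0.05, adjusted p = 5.84e-07).

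Of 14 TNF family ligands tested among 17 listed, 6 rose and 5 fell, beside 26% and 24.5% of all genes. Tnfsf4 (OX40 ligand) rose 4.21-fold, from 3.52 ± 0.434 to 14.8 ± 1.33 CPM, Tnfsf11 (RANK ligand) 1.52-fold and Lta (lymphotoxin-alpha) 1.36-fold. Tnfsf8 (CD30 ligand) fell 1.26-fold. Tnf, whose product binds TNFR2, was at 102.9, 96.6 and 99.9 CPM at 18 h and at 87.1, 91.4 and 86.8 CPM at 36 h, 1.13-fold lower with an adjusted p of 0.000865. Without the libraries above 10000 CPM of the ribosomal locus transcript the change in Tnf was -0.14 on the log2 scale with an adjusted p of 0.0532.

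Early target genes of the T cell receptor rose more often with the agonist than in control. With the agonist 19 of 26 such genes were higher at 36 h and 6 lower, with a median of 0.29, while in control 7 were higher and 12 lower, with a median of -0.10. The difference from control was upward in 15 of the 26 and downward in 2, against 3.68% and 3.01% of all genes. These counts were 13 and 2 with the ribosomal locus transcript as a covariate, and 9 and 0 without the libraries in which it passed 10000 CPM. The other agonists were nearer: 13 of the 26 were higher and 7 lower with 4-1BB (median 0.21) and 12 and 7 with DR3 (median 0.08), and the change with TNFR2 differed from that with 4-1BB in 1 gene and from that with DR3 in 6.

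Nr4a2, an orphan nuclear receptor induced by antigen receptor signals (chr2:57106830-57124003), was at 22.2, 23.6 and 23.1 CPM at 18 h and at 50.8, 48.1 and 51.2 CPM at 36 h with the agonist. Its means in control were 35.1 and 33.5 CPM, so the agonist libraries lay below control at 18 h and above it at 36 h, and the changes differed by 1.19 ± 0.09 on the log2 scale (adjusted p = 3.79e-14). Nr4a1 (Nur77, chr15:101254269-101274795), a common reporter of receptor signal strength, rose from 294.9, 294.5 and 298.2 CPM to 360.6, 376.6 and 358.6 CPM, and its mean in control fell from 386 to 286.4 CPM. The difference was 0.73 ± 0.05 with an adjusted p of 3.79e-14. Egr3, a zinc finger factor of the same early response, rose 1.82-fold with the agonist, and by 0.47 ± 0.06 more than in control (adjusted p = 4.55e-07). Not every member followed: Myc fell in both cultures, and Spry1, a feedback inhibitor of RAS signalling, fell 2.40-fold with the agonist and from 79.4 to 28.8 CPM in control.

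**Figure D3:**
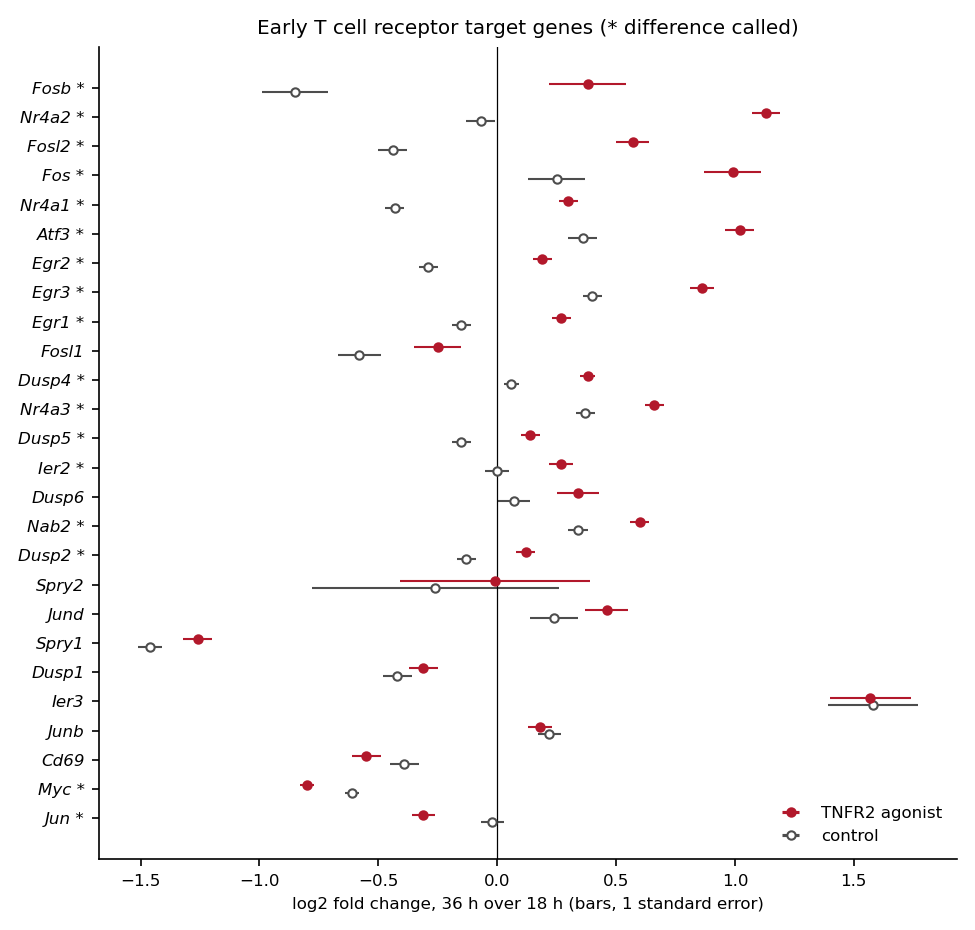
Log2 fold change from 18 h to 36 h ± 1 SE (x axis) of 26 early T cell receptor target genes (rows) in the TNFR2 agonist and control cultures, with an asterisk where the difference between the changes was called. For Nr4a2 the change was 1.13 with the agonist and -0.07 in control, and for Nr4a1 0.30 and -0.43.

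Signal regulators among the 10 smallest p-values for a difference from control moved in both directions. Sla, an adaptor that lowers T cell receptor levels, rose from 92.3, 91.2 and 93.1 CPM to 193.4, 192 and 190.1 CPM with the agonist, and from 149.3 to 198 CPM on average in control (difference 0.65 ± 0.05, adjusted p = 6.27e-14). Ptpn22, a phosphatase that restrains the proximal receptor signal, rose from 55.3 ± 2.57 to 76.1 ± 2.41 CPM while control went from 123.9 to 104.5 CPM (difference 0.71 ± 0.06, adjusted p = 3.68e-12). For both genes the agonist began below control at 18 h and the cultures were nearer at 36 h. Pim2, a survival kinase, fell from 136.4, 137.5 and 123.8 CPM to 68.0, 70.9 and 68.8 CPM with the agonist and from 98.9 to 84.9 CPM in control (difference -0.72 ± 0.06, adjusted p = 1.96e-12). Ncf1, an NADPH oxidase subunit, rose less than in control (difference -0.68 ± 0.06), and Ly75, the endocytic receptor DEC-205, fell with the agonist and rose in control (difference -0.61 ± 0.05). Slc35b4, a nucleotide sugar transporter, fell more (difference -0.57 ± 0.05), and in Ncf1, Ly75 and Slc35b4 the agonist cultures were above control at both times.

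Inhibitory receptors and ligands rose in 7 of 17 and fell in 6 with the agonist, against 2 and 9 in control. Of all genes 26% rose and 24.5% fell with the agonist. Vsir (VISTA), Lag3, Tigit and Cd200 fell 2.40-fold, 2.21-fold, 1.79-fold and 1.45-fold with the agonist. Their means in control also were lower at 36 h, for example 114.7 and 55.3 CPM for Tigit. The change was larger with the agonist, meaning a larger rise or a smaller fall, in 7 of the 17 and smaller in none, against 3.68% of all genes with a larger change. Of the 17, 4 were called without the libraries above 10000 CPM of the ribosomal locus transcript.

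Among 22 transcription factors of effector Tregs and helper lineages 10 fell and 3 rose, against 14 and 3 in control. Of all genes 24.5% fell and 26% rose with the agonist. The difference from control was upward in 6 of the 22 and downward in 8, with a median of 0.12, against 3.68% and 3.01% of all genes. These counts were 3 and 6 with the ribosomal locus transcript as a covariate. Eomes, a T-box factor of cytotoxic lymphocytes, rose from 14.4, 13.01 and 13.3 CPM to 30.5, 29.7 and 31.6 CPM with the agonist, and from 5.56 to 27.99 CPM on average in control. Its change was smaller with the agonist by 1.17 on the log2 scale (difference -1.17 ± 0.12, adjusted p = 1.29e-09), with similar levels at 36 h. Tbx21 (T-bet) rose from 116.3, 117.1 and 109.7 CPM to 169, 177.1 and 170.2 CPM, and by less than in control (difference -0.23 ± 0.05, adjusted p = 0.0026), a difference that without the libraries above 10000 CPM of the ribosomal locus transcript had an adjusted p of 0.15. Id2, an inhibitor of E proteins, rose 2-fold, and Batf, an AP-1 factor needed by tissue Tregs, fell from 117.1 ± 3.35 to 77.6 ± 3.37 CPM.

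Of 23 chemokine and homing receptors 6 rose and 7 fell, shares near the 26% and 24.5% of all genes. Of 25 quiescence and recirculation genes 5 rose and 13 fell, against 1 and 18 in control. S1pr1, the sphingosine phosphate receptor that lets T cells leave lymphoid tissue (chr3:115710433-115715072), was at 25.6, 25.5 and 26.4 CPM at 18 h and at 36.0, 37.3 and 36.3 CPM at 36 h with the agonist. Its mean in control was 41.02 CPM at 18 h and 33.9 CPM at 36 h, and the changes differed by 0.78 ± 0.07 on the log2 scale (adjusted p = 1.34e-11). The agonist libraries thus lay below control at 18 h and above it at 36 h.

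Ccr8, a chemokine receptor of tissue and tumour Tregs, rose 1.31-fold, with a change 0.46 ± 0.05 higher than in control (adjusted p = 2.58e-09), and Ccr7, the lymph node homing receptor, fell 1.18-fold. Tcf7 (TCF-1) fell 1.35-fold. Gimap3, a GTPase of lymphocyte survival, fell from 277.3 ± 7.62 to 165 ± 1.55 CPM with the agonist and from 436.7 to 199.6 CPM in control, a smaller fall with the agonist (difference 0.38 ± 0.05, adjusted p = 2.44e-08). The difference from control was upward in 11 of 25 quiescence genes and downward in 2, against 3.68% and 3.01% of all genes. These counts were 8 and 2 with the ribosomal locus transcript as a covariate. Without the libraries above 10000 CPM of that transcript, which left 1 control library at 18 h, the median difference was 0.08, against 0.11 with all libraries.

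IL-2 receptor and STAT5 response genes fell in 12 of 17 and rose in 3, with a median of -0.17. Pim1, a STAT5-induced kinase, went from 660.3, 638 and 682.2 CPM to 373.5, 381.1 and 374.1 CPM, Stat5a from 545.4 ± 5.35 to 362.6 ± 3.93 CPM, and Cish, the feedback inhibitor of the receptor, from 657.2 ± 15.2 to 471.1 ± 4.73 CPM. Control had the same counts of 12 and 3. Relative to control 5 of the 17 changed in the upward direction and 4 in the downward, against 3.68% and 3.01% of all genes. These counts were 2 and 4 with the ribosomal locus transcript as a covariate. Without the libraries above 10000 CPM of that transcript, which left 1 control library at 18 h, the median difference was -0.00, against 0.01 with all libraries. Pim1 and Stat5a fell more with the agonist, with differences of -0.31 ± 0.04 (adjusted p = 2.65e-06) and -0.39 ± 0.05 (adjusted p = 6.8e-08); at 36 h their control means were 336.6 and 325.5 CPM, below the agonist means of 376.2 and 362.6 CPM.

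Most cytokine transcripts rose. Of 20 cytokine genes tested among 23 listed, 18 were higher at 36 h and 2 lower, with a median of 1.17, and among the 10 that reached 10 CPM 9 rose and 1 fell. Lif, a member of the IL-6 family, was at 107.3, 110.7 and 113.1 CPM at 18 h and at 199.8, 196.1 and 205.3 CPM at 36 h. Il1a rose 5.65-fold, from 2.26 ± 0.373 to 12.97 ± 0.384 CPM, Csf2 (GM-CSF) 3.00-fold, Il2 2.81-fold and Ifng 2.80-fold. Csf1, the macrophage growth factor, fell 1.84-fold. In control 12 rose and 3 fell, with a median of 0.65, and 2 of the 20 changed more with the agonist.

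Chemokines went both ways, with 5 of 10 tested higher and 3 lower, beside 26% and 24.5% of all genes. Ccl3 and Ccl4, chemokines that attract T cells and macrophages, rose from 9.32 ± 2.56 to 55.9 ± 3.02 CPM and from 16.1 ± 0.628 to 54.0 ± 3.02 CPM. Cxcl10, an interferon-induced ligand of CXCR3, fell 2.44-fold, and Ccl5 fell 2.81-fold from 3.51 CPM. Gzmb, granzyme B, was at 9.90, 10.4 and 12.0 CPM at 18 h and at 40.9, 40.0 and 42.7 CPM at 36 h (3.84-fold), while control rose from 17.7 to 40.5 CPM (difference 0.75 ± 0.11, adjusted p = 3.74e-06). Serpinb9, the inhibitor of granzyme B, rose 1.27-fold. Of 6 genes tested in that list 4 rose and 1, Nkg7, fell; its fall was not called without the libraries above 10000 CPM of the ribosomal locus transcript (adjusted p = 0.0691).

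Targets of p53 rose in 20 of 24 and fell in 2, with a median of 0.63. Gtse1, which is also a mitotic gene, rose 3.46-fold, Sesn2 2.43-fold, Plk2 2.39-fold and Ccng1 (cyclin G1) 2.08-fold, the last from 214.6, 204.1 and 233.7 CPM to 462.5, 427.1 and 470.6 CPM. Ccng1 averaged 224.1 and 418.6 CPM in control. In the BCL2 family and death genes 10 of 20 rose and 5 fell, beside 26% and 24.5% of all genes. Both kinds of member were among the risers: Pmaip1 (NOXA, pro-apoptotic) rose 2.26-fold, and the survival genes Bcl2a1d and Bcl2a1b 1.64-fold and 1.34-fold. The Bcl2a1 genes are near-identical copies, and the division of reads between them is uncertain.

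Interferon-stimulated genes fell in 20 of 34 and rose in 6, with a median of -0.26, and in control 16 fell and 8 rose. Gbp5, a guanylate-binding protein of cell-autonomous defence, was at 320.1, 328.5 and 341.8 CPM at 18 h and at 178.2, 177.9 and 173.5 CPM at 36 h. It fell more than in control (difference -0.48 ± 0.05, adjusted p = 4.08e-10), whose means were 206 and 153.7 CPM. Irf7, Gbp3 and Irf9 fell 2.34-fold, 1.69-fold and 1.38-fold. Of 17 antigen presentation genes 6 were higher and 6 lower, against 26% and 24.5% of all genes: Cd74, the invariant chain, and Psmb9, an immunoproteasome subunit, rose 1.6-fold and 1.51-fold, while Cd83 and the class I gene H2-K1 fell 1.47-fold and 1.39-fold. Of 9 DNA methylation genes 4 rose and 3 fell, beside the same 26% and 24.5% of all genes. The maintenance pair Dnmt1 and Uhrf1 was 1.32-fold and 1.23-fold higher, Tet1 1.76-fold higher and Tet3 1.47-fold lower.

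Most of the change with time was shared with cultures that had no agonist. In control 7467 genes (52.2%) were called between 18 h and 36 h, and 5644 of them moved in the same direction with the agonist, which is 78.1% of the agonist calls and 75.6% of the control calls. Another 73 were called in opposite directions, 48 higher with the agonist and lower in control and 25 the reverse. The change differed from that in control in 958 genes (6.69%), 527 upward (3.68%) and 431 downward (3.01%), with a median absolute difference of 0.31 and 42 genes differing by at least 1 on the log2 scale. Which direction had more calls depended on the fit: there were 467 upward and 513 downward with DESeq2 size factors, 423 and 505 with DESeq2, 519 and 614 without TNFR2 replicate 3 at 18 h, and 159 and 83 without the libraries above 10000 CPM of the ribosomal locus transcript. Of the 958, 754 were also called between the times with the agonist and 204 were not. Slc4a11, which had the largest rise, rose more than in control (difference 1.2 ± 0.19, adjusted p = 7.86e-06), where it went from 4.53 to 53.4 CPM, so its control level was the higher at both times.

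**Figure D4:**
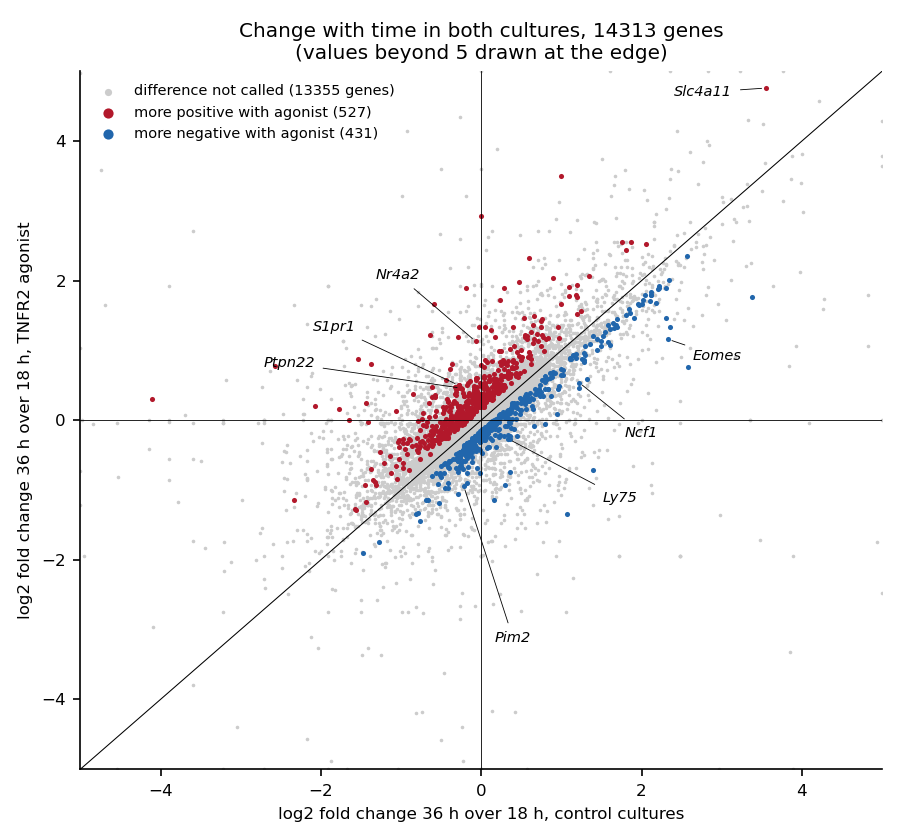
Log2 fold change from 18 h to 36 h in control (x axis) and with the TNFR2 agonist (y axis) for 14313 genes, with values beyond 5 drawn at the edge. Points in red (527 genes) changed more in the upward direction with the agonist, points in blue (431 genes) less, and the 13355 in grey did not differ by the test.

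Fewer genes differed in their change from the time courses of the other agonists. With the 4-1BB antibody 7313 genes (51.1%) and with the DR3 ligand 6965 genes (48.7%) were called between the times. Directions were shared by 5963 genes with 4-1BB (82.5% of the TNFR2 calls and 81.5% of the 4-1BB calls) and opposite in 9, and by 5741 with DR3 (79.5% and 82.4%) and opposite in 15. Across the 5874 genes with a mean log2 CPM above 5 the changes correlated with r = 0.969 for 4-1BB, 0.960 for DR3 and 0.911 for control, as a description over genes, which are not replicates. Over all 14313 genes r was 0.681 for 4-1BB, 0.624 for DR3 and 0.637 for control. The change differed from that with 4-1BB in 42 genes (0.293%), 32 upward (0.224%) and 10 downward (0.0699%), and from that with DR3 in 54 (0.377%), 42 upward (0.293%) and 12 downward (0.0838%). Single libraries moved these counts: the first was 104 without TNFR2 replicate 3 at 18 h, and 18 to 26 without TNFR2 replicate 2 at 18 h, TNFR2 replicate 1 at 36 h, 4-1BB replicate 1 or 3 at 18 h or 4-1BB replicate 3 at 36 h. The second was 106 (44 upward and 62 downward) without TNFR2 replicate 3 at 36 h, and 25 to 34 without TNFR2 replicate 2 at 18 h, TNFR2 replicate 1 or 2 at 36 h or DR3 replicate 1 or 2 at 36 h. Without the libraries above 10000 CPM of the ribosomal locus transcript they were 8 and 19. For the first the split was 55 upward and 49 downward without TNFR2 replicate 3 at 18 h and 50 and 32 with no count filter. The second was 130 with no count filter (59 upward and 71 downward), 22 in a fit of the compared groups only and 12 with a replicate block added to that fit. The agonists differ in kind and dose, so the genes are given side by side.

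Tbx21 rose from 81.6 ± 1.95 to 171.4 ± 0.776 CPM with 4-1BB, more than with TNFR2 (difference -0.48 ± 0.05, adjusted p = 9.75e-08), and the levels were alike at 36 h. Itgae, Il9, Pdcd4, Irgm1 and Fas were chosen for description after their values were seen. Itgae, the CD103 integrin chain, was not called with TNFR2 (log2 change 0.00, adjusted p = 0.978) and fell with 4-1BB from 40.2 to 25.6 CPM on average (difference 0.66 ± 0.09, adjusted p = 8.94e-06). Il9, a cytokine gene at a few CPM, rose from 1.75 to 3.25 CPM with TNFR2 and was lower at 36 h with 4-1BB (3.55 to 2.31 CPM) and DR3 (5.31 to 2.26 CPM), with differences of 1.53 ± 0.28 (adjusted p = 0.00351) and 2.13 ± 0.27 (adjusted p = 5.89e-06). Pdcd4, a translation inhibitor, fell less than with 4-1BB (difference 0.39 ± 0.06, adjusted p = 0.00048), Irgm1, an interferon-induced GTPase, rose less (difference -0.32 ± 0.05, adjusted p = 0.000929), and Fas, the death receptor, had changes of 0.06 and -0.36 (difference 0.43 ± 0.08, adjusted p = 0.00351).

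Several genes that stood apart from control also stood apart from DR3. In 6 genes, Nr4a1, Ptpn22 and Sla among them, the change was called different from that in control, 4-1BB and DR3 cultures alike. For Nr4a1, Ptpn22 and Sla against 4-1BB, and for Sla against DR3, whether the call held under the alternatives was not examined. The difference from the DR3 time course was 0.60 ± 0.09 for Nr4a2 (adjusted p = 7.07e-05), 0.38 ± 0.05 for Nr4a1 (adjusted p = 2.08e-05), 0.36 ± 0.05 for Tnfrsf9 (adjusted p = 2.08e-05), 0.42 ± 0.06 for Ptpn22 (adjusted p = 7.07e-05) and 0.67 ± 0.12 for Gzmb (adjusted p = 0.00109). The log2 changes with DR3 were 0.52 for Nr4a2, -0.08 for Nr4a1, -0.17 for Tnfrsf9, 0.05 for Ptpn22 and 1.27 for Gzmb. Without the libraries above 10000 CPM of the ribosomal locus transcript the Gzmb difference was 0.61 with an adjusted p of 0.0837.

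**Figure D5:**
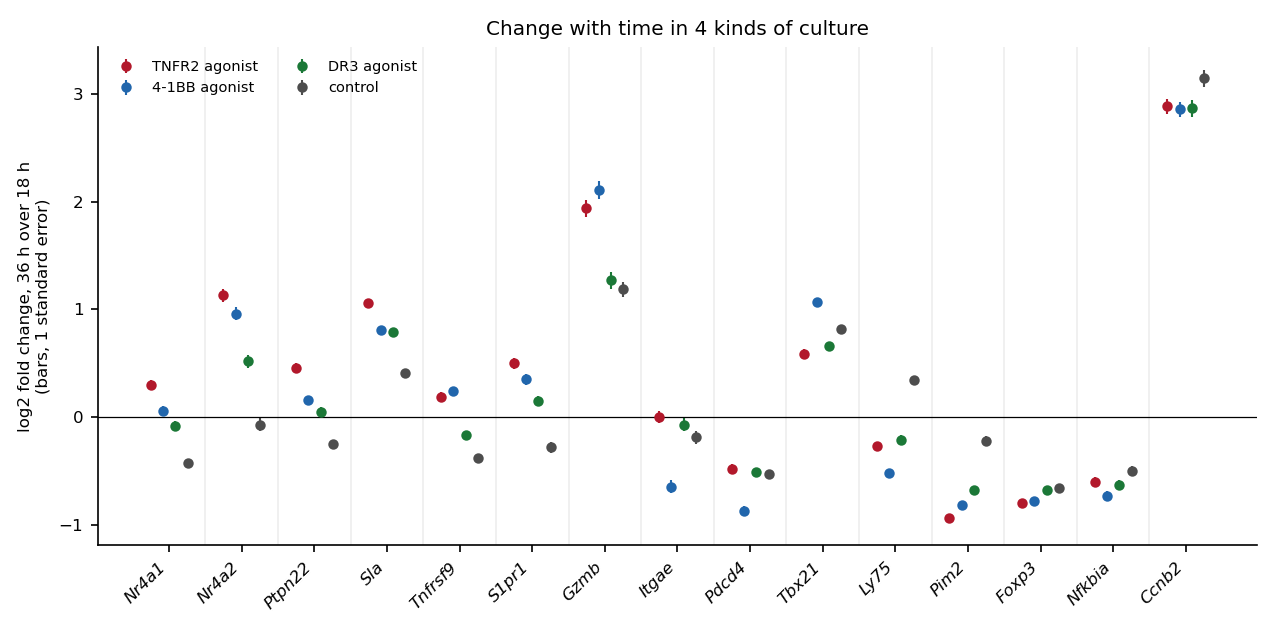
Log2 fold change from 18 h to 36 h ± 1 SE (y axis) of 15 genes in the TNFR2, 4-1BB, DR3 and control cultures, 3 libraries at each time. Nr4a2 is at 1.13 with TNFR2, 0.96 with 4-1BB, 0.52 with DR3 and -0.07 in control, while Ccnb2 lies between 2.86 and 3.15 and Foxp3 between -0.80 and -0.66 in the 4 cultures.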

How the data were processed

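RNA of cultured mouse Tregs was extracted with NucleoSpin RNA XS and amplified with SMART-Seq v4, which does not mark strand, per the labels' protocols, so genes that overlap on opposite strands cannot be told apart. Per the submitters' processing notes the reads were checked with FastQC, trimmed with Trimmomatic, aligned to mm10 with STAR 2.5.3a and quantified with RSEM 1.2.28. Which annotation release and strand setting were used is not given in the sources used here. Expected counts per gene and library are what the authors deposited, and these estimated counts were rounded to whole numbers. RSEM divides reads shared by near-identical genes, which makes their values uncertain.

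All 32 libraries in 11 groups entered a single edgeR 4.0.16 fit (R 4.3.3, limma 3.58.1) with TMM scaling, the filterByExpr filter and 1 mean per group, followed by the robust quasi-likelihood F test. The contrast was 36 h minus 18 h with the TNFR2 agonist, and the change in other cultures was compared by interaction terms. Log2 fold changes carry an SE derived from the F statistic, the Benjamini-Hochberg adjustment ran over all 14313 genes, and a gene was called at an adjusted p below 0.05. The estimated common dispersion was 0.00162. The main contrast was run on simulated data with 200 changed genes and otherwise equal group means. Scaling under a change as wide as that seen here, and the interaction terms, were not tested by it. Totals of 11880270 to 38083925 expected counts per library set the precision. Gene positions are from GENCODE M21, which matched 53973 of 54087 listed genes, and promoter sequences are from RefSeq (GRCm38.p6).

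Members of the 40 gene lists were chosen with earlier results of these data known. Named genes were the 12 largest rises and 12 largest falls among called genes with at least 5 CPM and no overlap between times, up to 4 members with the smallest p from each list, 7 genes taken whatever they did (Tnfrsf1b, Tnfrsf9, Tnfrsf25, Tnfrsf4, Tnf, Lta and Foxp3), and the 10 smallest p-values for a difference from control. Differences from control are also printed for named list members where they were called and were not lost under most alternatives. Alternatives were DESeq2 1.42.0, DESeq2 size factors, other count filters, fits of the compared groups only, a replicate block, the ribosomal locus transcript as a covariate, its removal with mitochondrial and small RNA genes, and leaving out each library. Leaving out the libraries above 10000 CPM of that transcript was chosen after seeing the data. No set test was made. Results for a few genes are not reported here.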

Additional observations from a re-analysis of the deposited data

Results flagged for a closer look

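The results below were picked out because the change from 18 h to 36 h differed between cultures by an interaction test in edgeR at an adjusted p below 0.05. Values are the log2 change with the TNFR2 agonist minus that in the other culture, and their causes were not tested.

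Relative to control, the difference was upward in early T cell receptor targets and regulators, with 1.19 for Nr4a2, 0.73 for Nr4a1, 0.47 for Egr3, 0.71 for Ptpn22 and 0.65 for Sla. It was also upward in the surface receptors S1pr1 (0.78), Tnfrsf9 (0.57), Ccr8 (0.46) and Ctla4 (0.41). In transport, stress and effector genes it was 1.2 for Slc4a11, 0.75 for Gzmb, 0.68 for Ddit4, 0.64 for Slc16a3 and 0.38 for Gimap3. The difference was downward in the transcription factors Eomes (-1.17) and Tbx21 (-0.23), in Pim2 (-0.72), Pim1 (-0.31) and Stat5a (-0.39), and in the receptors Ly75 (-0.61) and Tnfrsf8 (-0.40). It was -0.68 for Ncf1, -0.57 for Slc35b4 and -0.48 for Gbp5.

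Relative to the 4-1BB cultures the difference was 1.53 for Il9, 0.66 for Itgae, 0.43 for Fas and 0.39 for Pdcd4, and -0.48 for Tbx21 and -0.32 for Irgm1. Relative to the DR3 cultures it was 2.13 for Il9, 0.67 for Gzmb, 0.60 for Nr4a2, 0.42 for Ptpn22, 0.38 for Nr4a1 and 0.36 for Tnfrsf9. The changes in Nr4a1, Ptpn22 and Sla were also called different from those with 4-1BB, and that in Sla from that with DR3. Whether these calls held under the alternatives was not examined.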

How the results depend on the processing

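Among the genes chosen by the naming rule, no called change and no difference printed with a value reversed under any alternative run. The balance of upward and downward differences from control and from DR3 did reverse (values in the report). The count of genes called between the times ran from 5983 (without the libraries above 10000 CPM of the ribosomal locus transcript) to 7228, and from 6633 to 6777 with a single library left out. Genes differing from control numbered 958, 512 with that transcript as a covariate, 242 without the high libraries, and 687 to 1133 with a single library left out. Genes differing from 4-1BB numbered 42, 82 with no count filter, 8 without the high libraries and 18 to 104 with a single library left out; for DR3 these were 54, 130, 19 and 25 to 106, and 22 in a fit of the compared groups only. DESeq2 called 6850, 928, 51 and 56 genes in these 4 comparisons. The causes of these shifts were not tested. The fit with no count filter tested more genes, and the fits that left libraries out had fewer libraries.

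Replicate numbers are shared by the groups, but the labels do not say what a number marks, so the main fit took no pairs. Deviations of same-numbered libraries correlated at 0.287, 0.0988 and 0.227, and those of different-numbered libraries at -0.381 to 0.101. A correlation of 0.1 was required for pairing and replicate 2 fell just short of it. Whether the numbers mark pairs was therefore not settled. With a replicate block the counts were 6985 genes between the times, and 759, 45 and 12 genes differing from control, 4-1BB and DR3. The 36 h library of replicate 2 correlated almost equally with the 18 h libraries of replicate 1 (0.101) and replicate 2 (0.0988).

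Of 173 named genes called between the times, 167 kept direction and call in every alternative that tested them. Ebf1, Ighd, Lyz2, Nkg7, Tnf and mt-Co3 lost the call in at least 1. Most of these genes were named for a small p or a large change in this same comparison, so the count is no evidence of stability. Values of differences between cultures were printed only for genes that mostly held under the alternatives, so their persistence is no evidence of stability. Tbx21 against control and Gzmb against DR3 lost the call without the high libraries. Whether the calls against the other agonists that were named without a value held under the alternatives was not examined. Depth limits the genes near 1 CPM, such as Lyz2 and mt-Co3.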
